A study of Homo sapiens with 24 samples.

Results

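The transcripts of 9 regulators of definitive endoderm were followed through m6A-seq peak lists of 6 human cell populations. They encode the transcription factors SOX17, EOMES, GSC, MIXL1, LHX1 and HHEX, the secreted antagonist CER1, and the cell-surface receptors CXCR4 and KIT. A peak belonged to a gene when the deposited list gave that gene's identifier for it. By this rule the 9 genes carried 70 of the 228472 peaks in the lists, namely 22 in DE, 5 each in hPSC and PP, 4 in hILO, and 19 and 15 in WT PP and A5-KO PP. Every listed peak had an adjusted p below 0.05, a wider limit than the p below 1e-05 given in the study's methods. Of the 70 peaks 45 met that narrower limit, 18 of them in DE, 2 in hPSC, 5 in PP, 4 in hILO, 9 from WT PP and 7 from A5-KO PP. The share of all listed peaks that met it was not computed, so these counts do not set the members apart. Among the 70 peaks the highest p was 0.0288, at an HHEX peak of WT PP.

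All 6 populations came from the MEL1 hESC line of the labels, in the study the MEL1 INS GFP/W line, human embryonic stem cells with a GFP reporter at the insulin gene. Undifferentiated MEL1 cells (hPSC), their definitive endoderm derivatives (DE), the pancreatic progenitors made from these (PP) and islet-like organoids (hILO) were wild type and made up batch 1 of the labels, in which poly(A) RNA was precipitated with a SYSY antibody. Wild-type progenitors (WT PP) and progenitors of a line knocked out for ALKBH5 (A5-KO PP) made up batch 2, in which total RNA was precipitated with a Millipore antibody, rRNA was removed from the input only and another library kit was used. ALKBH5 is an enzyme that removes m6A from RNA, and the line was a clone made with CRISPR-Cpf1 directed at exon 1. DE was induced with 100 ng/ml activin A on days 1 to 3 and 3 µM CHIR99021, a GSK3 inhibitor, on day 1, and each later population passed through the same induction. Each population had 2 IP and 2 input libraries, whose reads were pooled in 1 list. No value per library was used here, so nothing below has a replicate check and no test was made between populations.

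N6-methyladenosine (m6A) is a methyl mark placed on adenosines of mRNA, mostly within a short consensus around the methylated base and often near the stop codon. It is read by proteins that alter the decay, splicing or translation of the transcript. Definitive endoderm is the germ layer that gives rise to gut, liver and pancreas, and forms in response to Nodal or activin signaling together with Wnt. EOMES, MIXL1, GSC and LHX1 act early in this response, SOX17 fixes the endodermal fate, and HHEX marks anterior endoderm and later foregut derivatives. CER1 blocks Nodal and BMP ligands outside the cell. CXCR4, the receptor for the chemokine CXCL12, and KIT, the receptor for stem cell factor, are surface antigens by which definitive endoderm is commonly recognized, although neither is particular to it.

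The consensus sought was DRACH, where D stands for A, G or T, R for A or G, and H for A, C or T. The following 21-base windows of the GRCh38 reference, written as DNA on the transcript strand, each show in capitals one such site inside a peak of that gene. For MIXL1, HHEX, CER1, CXCR4 and KIT the site is in the stretch covered by most lists, for LHX1 in a stretch of 2 lists, and for EOMES and GSC in a peak of DE only. The MIXL1 window holds another, overlapping site just 5′ of the one in capitals. The windows place the peaks within the transcripts, and nothing in the lists says which adenosine was methylated.
EOMES: aagtgtgaGGACAttaatgct
GSC: aactcgaaGGACTtgcacaga
MIXL1: gccatgacTGACAgcctggga
LHX1: atcaggtgGGACTatatatat
HHEX: ctacatggAGACCttaatttt
CER1: atgaagatGGACAcatcctac
CXCR4: atcagtctGGACCgctacctg
KIT: gcaccaacAAACAcggcttaa
The EOMES window lies at chr3:27717136-27717156 on the minus strand, in the coding sequence (CDS). The GSC window is chr14:94768437-94768457 (minus, 3UTR), the MIXL1 window chr1:226225847-226225867 (plus, 3UTR) and the LHX1 window chr17:36943687-36943707 (plus, 3UTR). The HHEX window is chr10:92694929-92694949 (plus, 3UTR) and the CER1 window chr9:14720134-14720154 (minus, CDS). The CXCR4 window is chr2:136115520-136115540 (minus, CDS) and the KIT window chr4:54695734-54695754 (plus, CDS, exon 2). Measured from the end of the stop codon, with negative numbers upstream, the adenosine of the capitalized site was at -77 in EOMES, 43 in GSC, 44 in MIXL1, 565 in LHX1, 170 in HHEX, -55 in CER1, -662 in CXCR4 and -2620 in KIT. Thus 5 of these 8 windows were within 200 nt of the stop codon, and those of LHX1, CXCR4 and KIT were not. The peaks of SOX17 are given by their distance from its stop codon.

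All 9 genes carried a peak in DE, where 57.0% of the 20033 annotated coding genes did. In hPSC 4 of the 9 had one (60.2% of coding genes). The number was 3 in PP (52.2%), 3 for hILO (57.7%), 7 for WT PP (62.8%) and 7 for A5-KO PP (69.7%). CXCR4 and KIT were the members with a peak in each of the 6 lists, although the CXCR4 peak of hPSC, like that of MIXL1, missed the p below 1e-05 of the study's methods. HHEX was missing in hPSC, MIXL1 and CER1 were missing in PP and hILO, and SOX17 and LHX1 were missing in hPSC, PP and hILO. EOMES and GSC had peaks in DE and in no other list. A gene without a peak is not thereby unmethylated, because a transcript with few reads gives no peak and coverage outside peaks was not used here. In these bulk samples fewer cells that express a gene and less RNA per cell cannot be told apart.

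**Figure D1:**
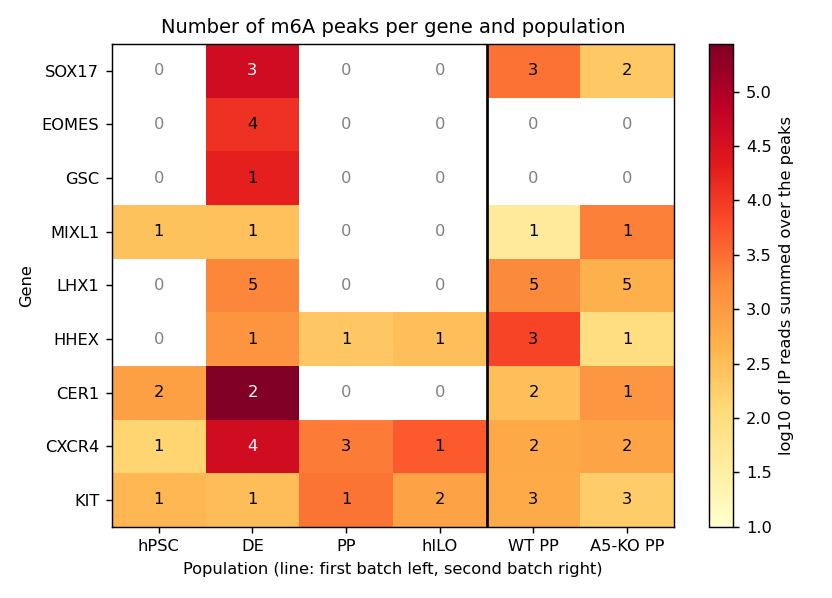
Number of m6A peaks of each gene (rows) in each population (columns), with color giving log10 of the IP reads summed over those peaks and white meaning no peak. The DE column is filled for all 9 genes, and EOMES and GSC are filled there only.

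Presence differed at the entry to and the exit from DE. SOX17, EOMES, GSC, LHX1 and HHEX, 5 of the 9 members, had a peak in DE and none in hPSC, which held for 9.09% of the coding genes with a DE peak. No member had the reverse pattern (13.9% of genes with a peak in hPSC). Toward PP, 6 of the 9 members, namely SOX17, EOMES, GSC, MIXL1, LHX1 and CER1, had no peak in PP (19.2%), and no member had a peak in PP without one in DE (11.7%). Between PP and hILO the same 3 genes, HHEX, CXCR4 and KIT, were present in both lists, where 10.1% of the PP genes had no peak in hILO and 18.7% of the hILO genes had none in PP. SOX17, EOMES, GSC and LHX1 belonged to the 378 coding genes with a peak in DE and in none of the other 3 stages, 3.31% of the genes with a DE peak. The 9 genes were picked as regulators of this germ layer, so these counts describe them and do not test them.

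Among those 378 genes, ordered by the input reads in their DE peaks, the first 5 were HAS2 with 13174 reads, SOX17 with 12130, ENTPD8 with 7069, COMMD8 with 6537 and MAFA with 5190. HAS2 makes hyaluronan, and MAFA is a transcription factor best known from mature beta cells. EOMES (5167 reads) and GSC (4555) came next, in places 6 and 7, and LHX1 (501) was in place 68. The likeness here is the presence of peaks in 4 lists and nothing finer. In batch 2 HAS2 had 5 WT PP peaks and 4 A5-KO PP peaks, whereas ENTPD8 had none in either list, as was true of EOMES and GSC.

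The members differed widely in the input reads under their peaks. Because peaks differ in length, these are given as input reads per 100 nt of peak. In DE this value was 27530 for CER1, 1866 for SOX17, 1301 for GSC, 999 for CXCR4, 469.7 for EOMES, 349 for HHEX, 64.0 for KIT, 30.4 for LHX1 and 13.3 for MIXL1. CER1 had the highest value and MIXL1 the lowest, and no replicate spread was available to order neighbors. The values describe the covered stretches and not the whole transcript, since values also varied within a transcript: SOX17 had 14960 reads per 100 nt in one exon 1 peak and 34.3 at its stop codon. The main CER1 peak stood at the 99.95 percentile of input density among all DE peaks, while the MIXL1 peak stood at the 15.0 percentile. The median DE peak of the members had 546.5 input reads, against 103 over all DE peaks, which was the largest excess of the 6 lists.

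**Figure D2:**
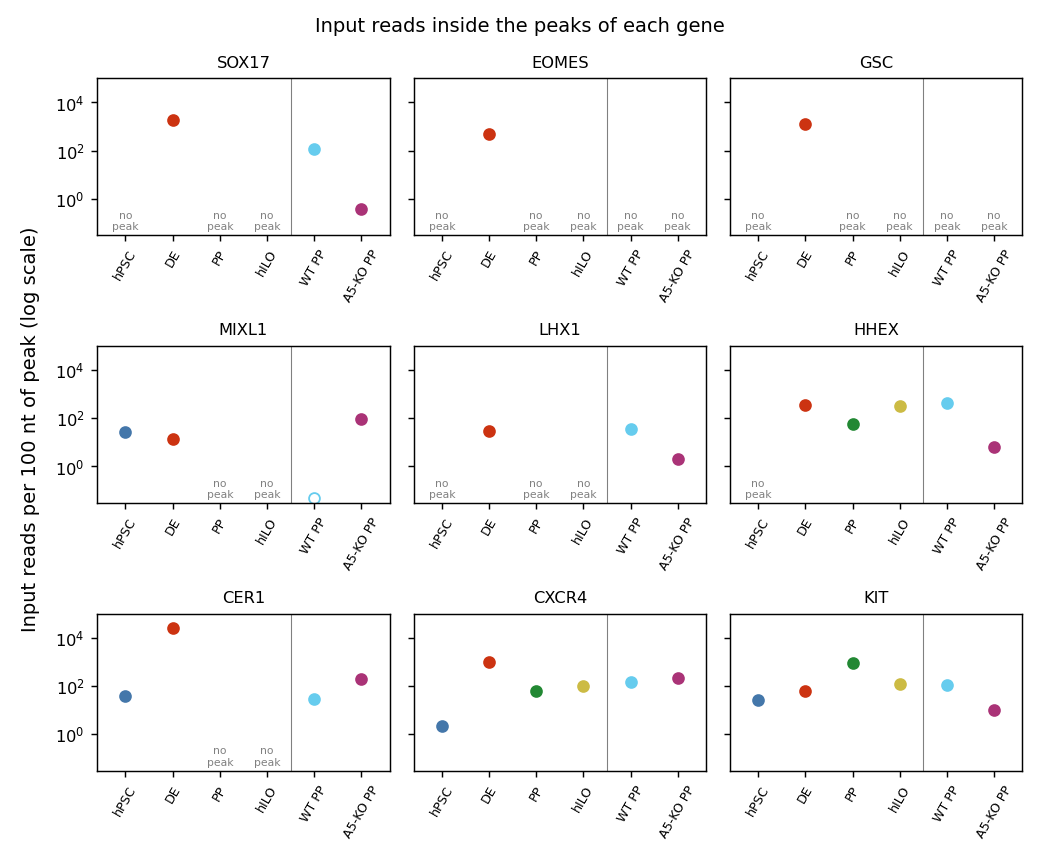
Input reads per 100 nt of peak on a log axis for each gene in the 6 populations, with batch 1 left and batch 2 right of the line. The open circle in the MIXL1 panel marks a peak with 0 input reads, drawn at the floor of the axis, and CER1 in DE (27530) is the highest point.

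SOX17, an HMG-box transcription factor, had 3 peaks in DE. The strongest in reads was a 75 nt peak in exon 1 centered at -1062 nt, with 11219 input and 38491 IP reads and a log2 enrichment of 1.35 ± 0.016. Here and below, ± is the counting error of the authors' log2 enrichment of IP over input, computed from the reads. A 50 nt peak just upstream, at -1149 nt, had 731 input and 2661 IP reads (1.11 ± 0.060). The third, 525 nt long, lay across the stop codon (-274 to 250 nt) and had 180 input and 538 IP reads (1.81 ± 0.12). The reads were thus concentrated in the first exon, while the enrichment was highest at the stop codon, where input density was 34.3 reads per 100 nt.

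In batch 2 the stop codon of SOX17 was again covered. WT PP had a 900 nt peak there with 507 input and 1383 IP reads (2.90 ± 0.075), a CDS peak with 451 and 950 reads (2.29 ± 0.082) and a 5UTR peak with 223 and 469 reads (1.68 ± 0.12). A5-KO PP had a 500 nt peak over the stop codon with 0 input and 147 IP reads and a 5UTR peak with 2 input and 72 IP reads. The 500 nt around the stop codon were common to the DE, WT PP and A5-KO PP peaks and held 8 DRACH sites. The peaks farther 5′ did not overlap between the lists.

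EOMES, a T-box factor that acts with SMAD2 and SMAD3 downstream of Nodal, had 4 DE peaks. The longest, chr3:27716774-27717573, covered 800 nt across the stop codon in exon 6, with 3816 input and 9543 IP reads (1.81 ± 0.028). A 3UTR peak at chr3:27716324-27716373 had 916 and 1096 reads (1.17 ± 0.065). In exon 1 the CDS peaks chr3:27722056-27722230 and chr3:27721781-27721855 had 296 and 139 input reads (1.15 ± 0.098 and 0.98 ± 0.14). All 3 smaller peaks were within the lowest 12% of DE peaks by enrichment, at percentiles of 11.6, 10.7 and 5.06, and the stop codon peak was near the middle at 56.5.

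GSC, the homeobox factor of the organizer and anterior mesendoderm, had 1 DE peak, chr14:94768223-94768572, with 4555 input and 18905 IP reads. It ran from -82 nt through the whole 3UTR in exon 3. Its log2 enrichment, 2.28 ± 0.024, was at the 81.8 percentile of the DE list and its input density at the 96.7 percentile. The peak held 8 DRACH sites and 4 occurrences of GGAC, one of which is in the window above.

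MIXL1, a paired-type homeobox factor induced by Nodal, had 1 peak in each of hPSC, DE, WT PP and A5-KO PP, in hPSC just past the stop codon and in the other 3 lists across it. In hPSC it had 20 input and 273 IP reads (2.08 ± 0.33) and in DE 60 and 275 (2.54 ± 0.20). In WT PP it had 0 input and 43 IP reads, and in A5-KO PP 169 and 2182 (6.27 ± 0.12). The 4 peaks shared chr1:226225826-226225900, 75 nt with 4 DRACH sites. Input reads were few throughout batch 1, and MIXL1, unlike SOX17, EOMES and GSC, was listed with a peak before DE, one that lay just outside the p limit in the study's methods.

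LHX1, a LIM homeobox factor, had 5 peaks in each of DE, WT PP and A5-KO PP, and no position occurred in all 3 lists. In DE the most reads were in chr17:36941121-36941370, 362 input and 1328 IP (2.1 ± 0.086), a stretch that is an exon of another isoform and not of the longest coding one. The other DE peaks had 11, 12, 76 and 40 input reads, with enrichments of 1.52 to 2.61. In WT PP the most reads were in a CDS peak of exon 5, chr17:36942875-36942999, with 310 and 1473 reads (3.08 ± 0.090), and the remaining 4 peaks had 0, 5, 26 and 1 input reads. In A5-KO PP 4 of the 5 peaks had no input read and the other had 31. Most LHX1 peaks thus rested on few input reads. At most 2 lists overlapped at any base, the longest unbroken overlap being 325 nt of the 3UTR (chr17:36943550-36943874) between DE and WT PP. Farther 5′, the overlap of a DE peak with an A5-KO PP peak was split into stretches of 311, 31 and 133 nt.

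HHEX, a homeobox factor needed in foregut, liver and ventral pancreas, had a peak at the start of the 3UTR in every list except hPSC. The peak had 872 input and 1287 IP reads in DE (1.40 ± 0.063), 75 and 228 in PP (1.81 ± 0.19), and 166 and 307 in hILO (1.43 ± 0.14). In WT PP the corresponding peak had 822 and 1529 reads (3.96 ± 0.062), and in A5-KO PP 27 and 91 (4.63 ± 0.31). The 5 lists met in 25 nt, chr10:92694926-92694950, which contain the window shown. WT PP had 2 further peaks, one downstream in the 3UTR with 1287 and 5574 reads (5.27 ± 0.045) and one in the CDS of exon 1 with 769 and 432 reads (0.85 ± 0.087). HHEX was the transcription factor of the group that kept a peak from DE through PP to hILO.

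**Figure D3:**
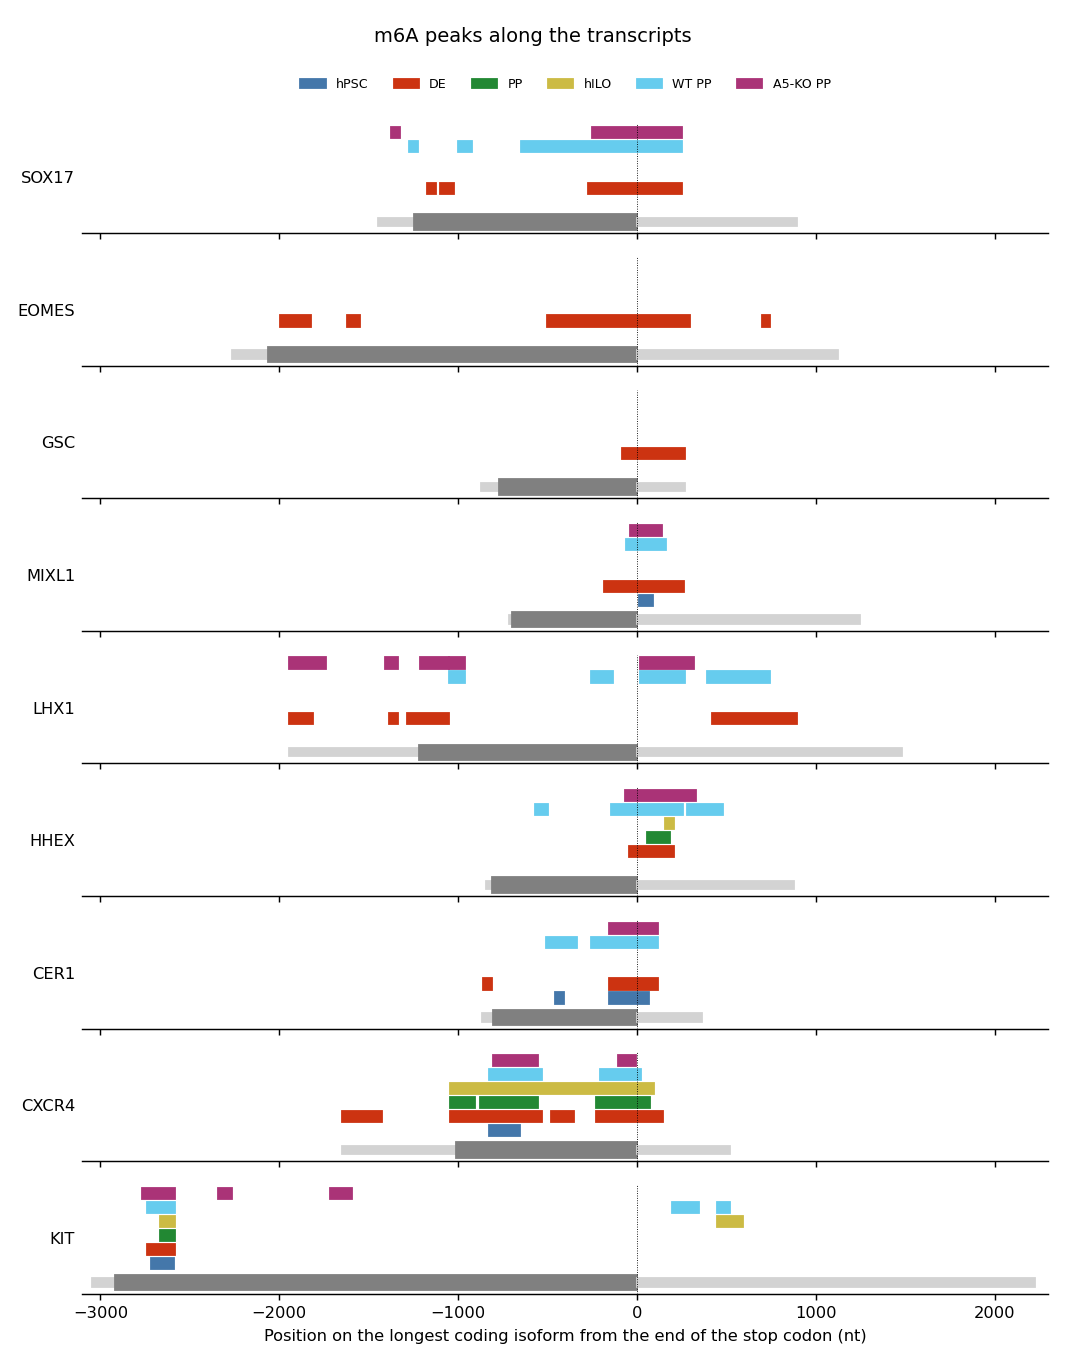
Peaks of each gene (colored bars, 1 row per population) drawn on the longest coding isoform, in nt from the end of the stop codon, with the CDS dark gray and the UTRs light gray. Peaks or parts of peaks on other isoforms are not drawn, and a bar spans any gap between parts of a peak. The bars of CXCR4 and KIT stack at one position in all 6 lists, and those of MIXL1, HHEX and CER1 gather at the stop codon.

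CER1, the secreted antagonist, had the most reads of any member. Its peak across the stop codon in exon 2, chr9:14719974-14720248, had 86311 input and 267422 IP reads in DE (2.08 ± 0.0056). In hPSC the peak at the same place had 70 input and 564 IP reads (1.56 ± 0.18), in WT PP 67 and 143 (3.64 ± 0.21), and in A5-KO PP 536 and 1185 (3.91 ± 0.075). The difference between hPSC and DE was thus large in input reads and small in enrichment. The 225 nt chr9:14720024-14720248 were common to the 4 lists, and PP and hILO had no CER1 peak. A second peak lay in the 5UTR in DE, with 3154 and 7016 reads (1.48 ± 0.031), and in the CDS of exon 1 in hPSC (38 and 282 reads, 1.27 ± 0.25) and WT PP (101 and 166 reads, 3.46 ± 0.18).

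CXCR4 carried a peak over the middle of its CDS in exon 2 in every list, and 150 nt, chr2:136115524-136115673, were common to all 6. The peak there had 4 input and 150 IP reads in hPSC (3.31 ± 0.69), 6755 and 22998 in DE (2.19 ± 0.020), and 260 and 1409 in PP (1.63 ± 0.097). In hILO it was part of a 1200 nt peak with 1218 and 4583 reads (2.07 ± 0.046). In WT PP it had 3 and 153 reads (7.32 ± 0.78), and in A5-KO PP 0 and 44. The hPSC value rested on 4 input reads and stood at the 98.7 percentile of its list, so its height is not well determined. A second CXCR4 peak, near the stop codon, had 4385 and 10307 reads in DE (1.90 ± 0.026), 179 and 664 in PP (1.79 ± 0.12), 775 and 477 in WT PP (1.94 ± 0.084), and 795 and 654 in A5-KO PP (2.55 ± 0.076). DE had 2 more, one in the CDS (2908 and 5996 reads, 1.40 ± 0.033) and one in the 5UTR (132 and 276 reads, 1.25 ± 0.15), and PP had 1 more at the start of the CDS (68 and 271 reads, 1.90 ± 0.20).

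KIT, a receptor tyrosine kinase, had a peak in exon 2 in all 6 lists, sharing the 75 nt chr4:54695698-54695772. It had 34 input and 386 IP reads in hPSC (1.86 ± 0.26), 128 and 313 in DE (1.76 ± 0.15), 1128 and 2715 in PP (1.22 ± 0.051) and 235 and 627 in hILO (1.61 ± 0.11). Among HHEX, CXCR4 and KIT, the members with a PP peak, only KIT had its highest input density in PP (902 reads per 100 nt, against 64.0 in DE). In WT PP the exon 2 peak had 300 and 263 reads (2.30 ± 0.12), and in A5-KO PP 0 and 49. KIT also had 3UTR peaks in hILO (73 and 180 reads, 1.51 ± 0.20) and WT PP (93 and 268 reads, 4.02 ± 0.17, and 95 and 71 reads, 1.87 ± 0.23), and peaks over exons 3 and 4 (14 and 73 reads) and 7 and 8 (48 and 71 reads) in A5-KO PP. The early coding position of the recurrent peak set KIT apart from the members with peaks at the stop codon.

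**Figure D4:**
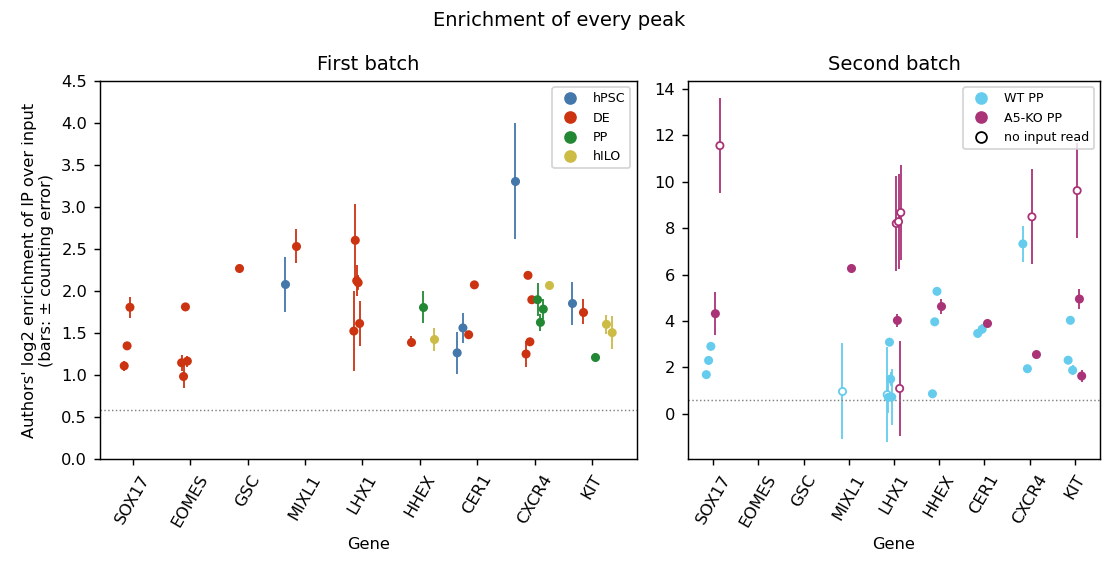
The authors' log2 enrichment of IP over input for all 70 peaks, with bars for the counting error and open circles for peaks with 0 input reads. The axes differ between the panels: the first batch lies between 0.98 and 3.31, the second between 0.70 and 11.56, and the dotted line is log2 of the 1.5 ratio used as the peak threshold.

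Members whose peaks were present in neighboring stages differed in reads. Peaks were called separately in each list, so input reads are set side by side per 100 nt of peak, with the length covered. Of the 4 members with peaks in both hPSC and DE, CER1 had 39.3 reads per 100 nt over 275 nt in hPSC and 27530 over 325 nt in DE. CXCR4 had 2.29 over 175 nt and 999 over 1420 nt. KIT (27.2 and 64.0) and MIXL1 (26.7 and 13.3) were closer between these lists. From DE to PP, CXCR4 had 999 and 61.5 reads per 100 nt and HHEX 349 (over 250 nt) and 60 (over 125 nt), whereas KIT had 64.0 and 902. In hILO the values were 101.5 for CXCR4, 332 for HHEX and 123 for KIT. The input reads inside all peaks of a list were 12602604 for DE against 7970658 for hPSC, 6987612 for PP and 28463998 for hILO, and the part of depth in these differences was not tested.

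Positions were compared by asking whether peaks of another list covered more than 50% of a peak's exonic length. Of the 22 DE peaks on the members, 2 were covered in hPSC (64.7% of all DE peaks) and 3 in PP (46.7%), and 3 in hILO (56.0%). In the other direction 4 of 5 hPSC peaks (52.5%), 5 of 5 PP peaks (57.0%) and 3 of 4 hILO peaks (51.4%) were covered in DE. Between PP and hILO, 4 of 5 PP peaks (60.5%) and 2 of 4 hILO peaks (45.6%) were covered. The few peaks that the members had at the other stages therefore lay mostly at positions also marked in DE, while most DE peaks had no counterpart, as follows for 5 genes from their lack of any hPSC peak.

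Enrichment was compared for the peaks of the later list that were covered in the earlier one. From hPSC to DE the log2 enrichment differed by 0.51 at the CER1 stop codon (95% interval from counting error 0.16 to 0.87) and by -0.10 at KIT exon 2 (-0.68 to 0.48). From DE to PP the differences were -0.56 (-0.75 to -0.36), -0.29 (-0.67 to 0.09) and -0.11 (-0.36 to 0.13) in CXCR4. They were -0.54 in KIT (-0.85 to -0.22) and 0.41 in HHEX (0.01 to 0.81). From PP to hILO CXCR4 differed by 0.45 (0.23 to 0.66) and KIT by 0.39 (0.15 to 0.62). The pairs were not all separate or equal in length. The CXCR4 values of -0.56 and -0.29 were taken against the same DE peak, chr2:136115399-136115998. The CXCR4 peak of hILO, 1200 nt long, was set against the PP peak that overlapped it most, 325 nt long. None of these 9 pairs reached 1 in either direction, although 6 of the intervals left out 0. With the log2 ratio of counts less the list median, the differences from hPSC to DE were 0.58 in CER1 and -0.24 in KIT. By that ratio the CXCR4 differences from DE to PP were -0.18, -0.63 and -0.19 in the same order, KIT was -0.86 and HHEX 0.18. From PP to hILO they were then 0.26 in CXCR4 and 0.93 in KIT, and 5 of the 9 intervals left out 0 at the same counting errors. How often intervals left out 0 over all shared pairs was not computed for either scaling. Pairing from the earlier list, an alternative chosen after seeing the data, added the CXCR4 peak of hPSC, which differed from DE by -1.12 (-2.47 to 0.23) on 4 hPSC input reads. It also added MIXL1 from hPSC to DE (0.46, -0.31 to 1.22) and CXCR4 peaks from PP to hILO (0.18, -0.22 to 0.57, and 0.29, 0.03 to 0.54). Over all shared pairs the share that was higher or lower by at least 1 was 4.45% and 6.9% from hPSC to DE, 7.35% and 8.21% from DE to PP, and 4.11% and 13.2% from PP to hILO. The lists were scaled separately, and the intervals leave out the variation between cultures.

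**Figure D5:**
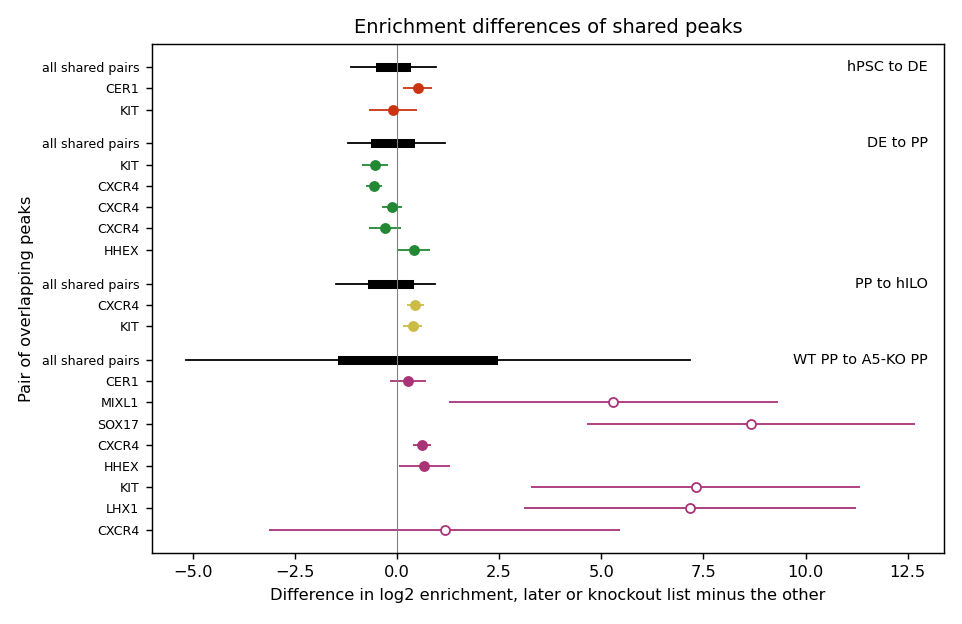
Difference in the authors' log2 enrichment for each peak of the later or A5-KO PP list covered in the other, later stage minus earlier stage or A5-KO PP minus WT PP, with 95% intervals from counting error. Black bars give the interquartile range and thin lines the 5th to 95th percentile of all shared pairs, and open circles are pairs with 0 input reads in one list. The plotted stage pairs lie within 1 of 0, and the 5 pairs beyond 1 are all open circles.

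The comparison of WT PP with A5-KO PP asked what the loss of ALKBH5 did to m6A in progenitors. The targeted gene itself had 4 peaks with 289 input and 836 IP reads in WT PP, and 5 peaks with 1 input and 592 IP reads in A5-KO PP. In batch 1 ALKBH5 had 3 peaks per stage, with 382 (PP) to 2753 (DE) input reads. These reads do not check the knockout, because they cover peaks only and do not resolve the edited site. An empty input was common in this batch, at 11.5% of WT PP peaks and 24.6% of A5-KO PP peaks, and among the members' peaks at 2 of 19 and 7 of 15.

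The same 7 members had peaks in WT PP and A5-KO PP, whereas 8.11% of the coding genes with a peak in WT PP had none in A5-KO PP. In input reads per 100 nt of peak, SOX17 had 115 in WT PP against 0.364 in A5-KO PP, HHEX 426 and 6.75, LHX1 36.0 and 2.14, and KIT 115 and 9.92. These values were higher in WT PP, and those of CER1 (30.5 and 195), CXCR4 (148 and 227) and MIXL1 (0 and 96.6) were higher in A5-KO PP. The peaks behind them differ between the lists, since 310 of the 342 LHX1 reads of WT PP lay in 1 peak with no counterpart in A5-KO PP, and HHEX had 3 peaks against 1. Of the WT PP peaks 8 of 19 were covered in A5-KO PP (50.0%), and of the A5-KO PP peaks 8 of 15 in WT PP (46.8%).

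In the 8 shared pairs, 5 had a log2 enrichment higher by at least 1 in A5-KO PP (38.0% of all shared pairs) and none was lower by that much (28.9%). They were SOX17 at the stop codon (8.66, interval 4.65 to 12.67), KIT exon 2 (7.32, 3.29 to 11.34), LHX1 3UTR (7.18, 3.12 to 11.24), MIXL1 (5.29, 1.26 to 9.32) and the middle CDS peak of CXCR4 (1.17, -3.14 to 5.47). Each of the 5 had 0 input reads in one of the 2 lists. The tally depended on the scaling. It was repeated with the log2 ratio of counts, less the median of its list, in place of the authors' enrichment. Then 3 of the 8 pairs were higher by at least 1, namely SOX17 (5.36), KIT (5.43) and LHX1 (2.99). Lower by that much was 1 pair, MIXL1 (-2.18). The shares over all shared pairs were not computed with this scaling. In the pairs with input reads in both, the difference was 0.27 in CER1 (-0.18 to 0.71), 0.61 in the peak of CXCR4 near the stop codon (0.39 to 0.83) and 0.67 in HHEX (0.04 to 1.29). The CXCR4 peak had the most input reads of these, 775 and 795, and its difference was 0.01 by the count ratio, while CER1 turned to -0.35 and HHEX was 0.42.

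Enrichments at 0 input reads could not be read as levels. In A5-KO PP such peaks had log2 values of 11.56 for SOX17 with 147 IP reads, 9.62 for KIT with 49, 8.49 for CXCR4 with 44, and 8.28 and 1.08 for LHX1 with 54 and 40. In WT PP the values were 0.98 for MIXL1 with 43 IP reads and 0.82 for LHX1 with 75. Thus similar IP counts over an empty input gave values from below 1 to above 8.

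The progenitors of the 2 batches also differed. SOX17, MIXL1, LHX1 and CER1, 4 of the 7 members with a peak in WT PP, had none in PP, against 24.2% of the coding genes with a WT PP peak. Antibody, RNA fraction, library kit and batch cannot be told apart here. Markers of other cell types stood beside these members. Over all coding genes, a peak was found for 62.8% in WT PP, 69.7% in A5-KO PP and 52.2% in PP. Of 6 hepatic genes, 5 had a peak in WT PP (16872 input reads), 4 in A5-KO PP (1376) and 1 in PP (139). TTR alone gave 15675 of the WT PP reads and 250 of the A5-KO PP reads, and the other hepatic genes together gave 1197 and 1126. Of 6 endothelial and blood genes, 2 had one in WT PP (297), 5 in A5-KO PP (2405) and 1 in PP (260), with PECAM1 and CDH5 lacking one in WT PP and PP. Of 6 mesenchymal genes, 3 had one in WT PP (409), 6 in A5-KO PP (2402) and 4 in PP (2005). Of these reads COL1A1 gave 333 in WT PP, LUM 1724 in A5-KO PP and COL3A1 1736 in PP. For 6 endocrine genes the counts were 2 (655), 3 (2348) and 2 (918), and CHGA gave 653, 2105 and 827 of the reads. AFP, APOA1, APOB, TTR and SERPINA1 had a peak in WT PP and ALB had none in the 3 lists, while the AFP peak had 0 input reads in WT PP against 88 in A5-KO PP. Of 6 pancreatic progenitor genes, 6, 6 and 5 had one, with 26314, 15532 and 15440 reads. HHEX, KIT and CXCR4 are also expressed in liver, endothelium or blood cells, and the part of such cells in the members' reads was not tested.

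The marker lists separated some stages and not others. Of 6 pluripotency genes 4 had a peak in hPSC and 4 in DE (2355 and 4995 input reads), 2 in PP (238) and 1 in hILO (512), with SOX2 and DNMT3B lacking a peak in hPSC, so this list did not set hPSC apart from DE. Of 4 extraembryonic endoderm genes, SOX7, HNF4A and APOA2 had a peak in DE (1285 reads, of which SOX7 gave 1171) and TTR did not. Of the 6 endothelial and blood genes none had a peak in DE. Endocrine and hepatic lists were complete in hILO, 6 of 6 each, with 56627 and 62568 input reads. Of the pancreatic progenitor genes 5 had a peak in PP and 5 in hILO (15440 and 21079 reads). SOX17 is shared between definitive and extraembryonic endoderm, and the part of the latter was not tested.

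Along the transcript, the members' peaks were placed by their midpoint on the longest coding isoform. In DE 12 lay in the CDS, 5 in the 3UTR and 3 in the 5UTR, and 2 had a midpoint off this isoform. Over all placed DE peaks the shares were 50.8%, 44.5% and 4.69%. In WT PP the counts were 10, 7, 1 and 1 (48.9%, 43.9% and 7.13% of all placed peaks), and for A5-KO PP 6, 4, 2 and 3 (56.3%, 37.4% and 6.35%). Peaks with a midpoint off the isoform could still lie partly on it, as did 1 of the 2 in DE and all 3 in A5-KO PP. Within 200 nt of the stop codon were 7 of 22 peaks in DE (22.0% of all placed DE peaks), 7 of 19 in WT PP (19.0%) and 6 of 15 in A5-KO PP (18.3%). The stop codon was covered in DE in SOX17, EOMES, GSC, MIXL1, HHEX, CER1 and CXCR4, and not in LHX1 or KIT.

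DRACH was found in 16 of the 22 DE peaks on the transcript strand, the strand that was methylated, against 90.8% of all DE peaks. The 6 peaks without it were 50 to 125 nt long. They were every 50 nt peak of the members in DE (SOX17, EOMES, LHX1 and CER1), the 75 nt peak of EOMES and the 125 nt peak of CXCR4. The 75 nt peak of SOX17 held one. Of all DE peaks, 63.3% of those of 50 nt, 79.6% of those of 75 nt and 94.8% of those of 125 nt held one. The part of length in the members' lower share was not tested. GGAC, which makes a DRACH site when A, C or T follows, was found in 15 of the 22 (54.5%). In DE the members' peaks held 2.03 DRACH and 0.516 GGAC sites per 100 nt, against 1.67 and 0.339 in the remaining exonic sequence of the genes. In WT PP 16 of 19 peaks (90.1%) and in A5-KO PP 13 of 15 (91.4%) held DRACH. The common stretch of KIT held 1 DRACH site, AAACA, and no GGAC, and that of MIXL1 held 4 DRACH sites and no GGAC.

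Other genes of the Nodal, Wnt and FGF pathways around endoderm induction were counted as a list of 24. A peak was found for 22 of them in DE (57.0% of coding genes), 18 in hPSC (60.2%), 13 in PP (52.2%) and 12 in hILO (57.7%). In batch 2 it was 17 in each list, with shares over coding genes of 62.8% for WT PP and 69.7% for A5-KO PP. TBXT (14 input reads), the T-box factor of the primitive streak, PRDM1 (1482), DKK1 (31), a Wnt antagonist, and FGF17 (3494) had a peak in DE and none in hPSC (9.09% of coding genes with a DE peak), and no gene of the list had the reverse. LEF1 and FGF8 had no peak in either. Of the Nodal ligand and its feedback inhibitors, which had peaks in both lists, NODAL had 725 input reads in hPSC and 9876 in DE, LEFTY1 had 1660 and 84889, and LEFTY2 had 392 and 22027. LEFTY1 was thus near CER1 (89465) in its DE reads. Among the 18 genes with peaks in both, input reads were higher in DE for 11 and lower for 7, and the lower ones included TDGF1, the Nodal co-receptor (5283 and 68), WNT3 (2261 and 178) and ACVR2B (702 and 159). These are sums over separately called peaks, not scaled for depth. NODAL and LEFTY2 had no peak in PP, hILO, WT PP or A5-KO PP, as was the case for EOMES and GSC.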

How the data were processed

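m6A-seq had been run on 2 IP and 2 input libraries of each of 6 populations (24 libraries). Per the labels and the study's methods, the authors used fastp for trimming, HISAT2 for alignment to GRCh38, and called peaks with exomePeak2 on the libraries of a population together. The authors deposited, for every peak, IP counts and input counts combined over libraries (whether summed or averaged was not stated), a log2 enrichment and a p-value with its adjusted form, which was below 0.05 for every peak of the 6 lists. Motifs had been searched with HOMER, whose output was not used here.

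Peaks were reduced to the exons of their gene in GENCODE 44, and coordinates are 1-based. Counting errors were computed from both counts, 0.5 being added and the counts being treated as sums. It covers counting error only, and PCR copies are not independent molecules. Depth was read from reads inside peaks (30723097 to 79822815 IP reads per list), and library totals were not used. Overlap, placement and motif code (Python 3.11.15, numpy 2.4.6, pandas 2.3.3) was tested on simulated data. All 9 members are named, with a fixed list of 24 pathway genes, those differing in presence between hPSC and DE being given with values, and the 5 genes with the most DE input among those with peaks in DE alone of the 4 stages. NODAL, LEFTY1, LEFTY2, TDGF1, WNT3 and ACVR2B were named after their values were seen. Members and lists were chosen with earlier results of these data known. Alternatives covered p, enrichment, input and overlap thresholds, the region rule, the motif and the scaling of enrichment.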

Additional observations from a re-analysis of the deposited data

How the results depend on the processing

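No paired analysis was possible because each list pools its libraries, and for the same reason no library could be left out. Of the recomputed counts, 72 stayed within 1.5 times their value and 24 did not. With p below 1e-05, the limit stated by the study, peaks fell to 2 in hPSC (on 2 members, CER1 and KIT), 9 in WT PP and 7 for A5-KO PP. With p below 1e-10, they fell to 0 in hPSC (0 members), 3 in PP, 2 in hILO, 3 in WT PP (2 members) and 2 in A5-KO PP (2 members). An IP/input ratio of at least 3 left 3 peaks in hPSC, 12 in DE and 2 in hILO, and at least 10 input reads left 7 peaks on the members in A5-KO PP. With any overlap 4 DE peaks were found in hPSC, and with over 50% of both peaks 3 PP peaks were found in DE and 1 hILO peak in PP. Counting any overlap with a region gave 9 3UTR peaks in DE and 11 CDS peaks in A5-KO PP. GGAC in place of DRACH was held by 2 peaks in hPSC, 3 in PP and 2 in hILO. With the log2 ratio of counts centered on each list in place of the authors' enrichment, the WT PP to A5-KO PP difference reversed to -2.18 in MIXL1 and -0.18 in the middle CDS peak of CXCR4, CER1 turned from 0.27 to -0.35, and the CXCR4 pair near the stop codon went from 0.61 to 0.01. LHX1 went from 7.18 to 2.99, KIT from -0.54 to -0.86 (DE to PP) and from 0.39 to 0.93 (PP to hILO), CXCR4 from -0.56 to -0.18 and from -0.29 to -0.63 and HHEX from 0.41 to 0.18 (DE to PP), and CXCR4 from 0.45 to 0.26 (PP to hILO). The median over the 8 pairs of WT PP and A5-KO PP went from 3.23 to 0.21, and to 0.61 over the pairs whose peaks each had 10 or more input reads, and the DE to PP median from -0.29 to -0.19. Pairing from the first list, chosen after seeing the data, gave medians of 0.18 from hPSC to DE, -0.54 from DE to PP, 0.34 from PP to hILO and 3.23 in the second batch. For all of these the cause was not tested. Of the member peaks 5 of 19 in WT PP and 8 of 15 in the knockout had under 10 input reads (21.9% and 36.6% of all peaks), which limits what their enrichment can show.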
